A study of Mus musculus with 70 samples.

Results

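Mesenchymal stromal cells of hindlimb skeletal muscle (MmSCs) from mdx mice were compared between 7 weeks and 2.5 weeks of age. The members are the 6 libraries whose labels give these ages, 3 at 7 weeks and 3 at 2.5 weeks, of 70 libraries in the series. All 6 carry the DMDmdx genotype and no treatment. The mdx allele is a premature stop in Dmd, the dystrophin gene, and both ages carry it. Each library was made from poly(A) RNA of 1000 cells that were purified by flow cytometry in 2 rounds. The series, a study of stromal cells in muscle injury, also holds 2 mdx libraries of 12.5 weeks (written 12 in their titles) and 3 libraries of MmSCs from uninjured C57BL/6J muscle at day 0, which serve below as levels for orientation. The labels do not say which animal gave each library, so the spread between libraries may be partly technical. No wild-type MmSCs of 7 or 2.5 weeks were analysed here, so growth of the young mouse and onset of the disease cannot be told apart in any value below.

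MmSCs are the fibroblast-like cells between muscle fibres. They make the collagen-rich matrix, release chemokines that draw in leukocytes after damage, and feed growth factors to satellite cells, the muscle stem cells. In mdx limb muscle the fibres are known to be fairly intact in the suckling mouse and to enter waves of necrosis, inflammation and repair after weaning, with scar matrix building up later. Between those ages the mouse also passes from rapid body growth to near-adult size.

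The 6 libraries held 5960363, 5590785 and 4424543 counts at 7 weeks, and 4774180, 5082533 and 4653383 counts at 2.5 weeks. Levels are given as CPM, the counts scaled to a common library total, for labelled replicates 1, 2 and 3 in that order. A change is the log2 ratio of 7 over 2.5 weeks with its standard error from edgeR's quasi-likelihood fit, and a gene is called, or said to have risen or fallen, at a Benjamini-Hochberg adjusted p under 0.05. Of 13160 genes tested, 5864 were called (44.6%), 2883 of them higher (21.9%) and 2981 lower (22.7%) at 7 weeks. At least 2-fold changes made up 1302 of the higher calls (9.89% of genes tested) and 1640 of the lower calls (12.5%). The median change of all genes tested was -0.02 and the libraries of both ages did not overlap in 53.7% of genes. These shares are the background for every count below. Replicate 2 of 2.5 weeks stood apart from the other libraries of its age, and results that it moves are given with and without it.

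The cells carried Pdgfra and Ly6a transcripts at both ages. Pdgfra, the receptor that defines muscle stromal cells, had 369, 411 and 398 CPM at 7 weeks, and 561, 283 and 490 CPM at 2.5 weeks. Ly6a, which encodes Sca-1, had 1144, 1256 and 1099 CPM at 7 weeks, and 1095, 1320 and 1141 CPM at 2.5 weeks. Neither gene was called. Other stromal markers did change: of 16 MmSC markers tested, 5 rose and 5 fell (62.5% called, against 44.6% of all genes). Thy1 and Col1a1 were among those higher at 7 weeks, and Dpp4 and Pi16 among those lower. Ptprc, the pan-leukocyte gene CD45, stayed at or below 0.838 CPM in all 6 libraries, and Pax7 of satellite cells at or below 0.452 CPM. The 14 satellite cell and myoblast markers summed to 1139 to 1326 CPM at 7 weeks and 429 to 579 CPM at 2.5 weeks. Of the 6 tested, Vcam1, Des and Sdc4 rose and none fell, and Sdc4 was the largest. Summed macrophage and monocyte markers (20 genes) ranged from 21.9 to 34.4 CPM at 7 weeks and from 30.5 to 47.1 CPM at 2.5 weeks, with 11 of the 20 under 1 CPM in every library and Ms4a7 at 0. Without Cd68 and Cd14 the sums were 10.6 to 18.5 CPM at 7 weeks and 5.51 to 13.1 CPM at 2.5 weeks. The ages overlapped with and without these genes. The 24 myofibre markers summed to 25.8 to 29.4 CPM at 7 weeks and 45.4 to 65.8 CPM at 2.5 weeks. The 14 endothelial markers summed to 55.9 to 65.1 CPM at 7 weeks and 385 to 449 CPM at 2.5 weeks, a gap made by Tek, the angiopoietin receptor. Without Tek the sums were 15.6 to 20.8 CPM at 7 weeks and 10.4 to 27.3 CPM at 2.5 weeks. In these bulk libraries fewer cells of a type and less RNA per cell cannot be told apart, here and in all results below. Dmd itself had 14.3, 13.2 and 18.1 CPM at 7 weeks, and 26, 32.3 and 24.9 CPM at 2.5 weeks, a change of -0.82 ± 0.19 (adjusted p = 0.00358). This level does not check the genotype label, since both ages carry the allele and no wild-type library of these ages is set beside them.

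**Figure D1:**
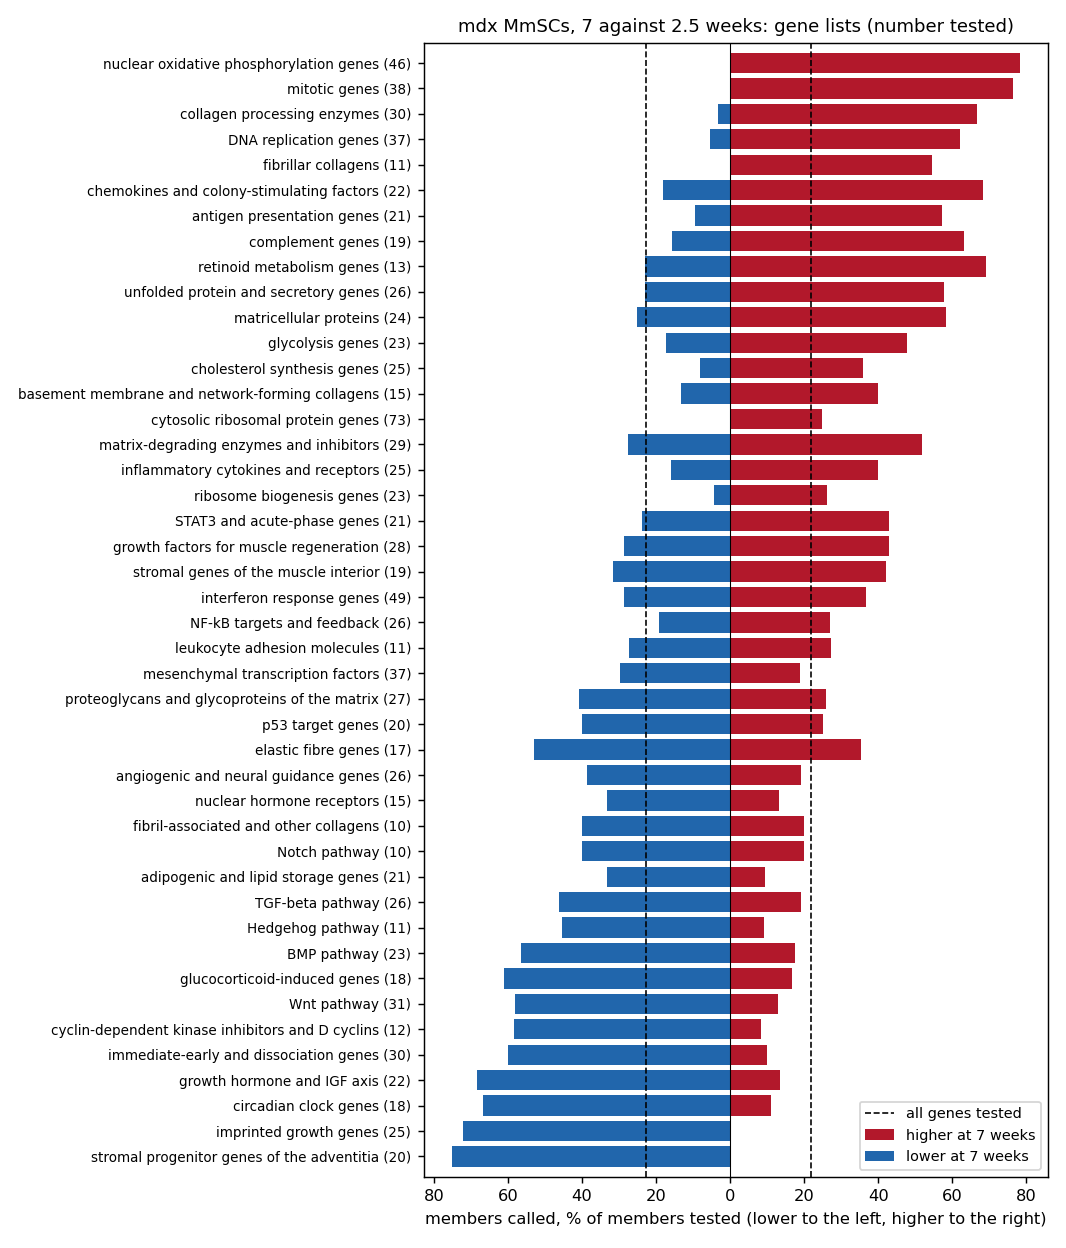
Share of the members of 44 gene lists called in 7 against 2.5 weeks. Bars to the right are members higher at 7 weeks and bars to the left members lower, as a percentage of members tested (number in brackets), and dashed lines mark the 21.9% and 22.7% of all genes tested. Mitotic, oxidative phosphorylation and collagen processing genes lie far to the right, and imprinted growth genes and adventitial progenitor genes far to the left.

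The matrix programme was remodelled. Matricellular proteins, collagen cross-linking enzymes and several matrix proteases were higher at 7 weeks, and 9 of 17 elastic fibre genes were lower. Of the called genes that reached a mean log2 CPM of 3 without overlap of the ages, Spp1 changed most upward (chr5:104435118-104441050, GRCm38, plus strand). It encodes osteopontin, a secreted matrix protein that binds integrins. Spp1 had 120, 120 and 278 CPM at 7 weeks, and 1.05, 0 and 0 CPM at 2.5 weeks, a change of 8.93 ± 0.56 (adjusted p = 3.75e-08). That is near absence at 2.5 weeks against clear expression in all 3 libraries of 7 weeks. Its size depends on the 5 counts at 2.5 weeks, all in replicate 1, and was 12.72 without that library.

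Of 24 matricellular genes tested, 14 rose and 6 fell, with a median change of 1.00, against 21.9% and 22.7% of all genes and a median of -0.02. Tnc (chr4:63959785-64047015, minus strand), which encodes tenascin-C, a matrix protein of wounds and embryonic tissue, had 1255, 1179 and 1296 CPM at 7 weeks, and 39, 86.6 and 124 CPM at 2.5 weeks (change 3.96 ± 0.30, adjusted p = 2.02e-07). Tenascin-W, encoded by Tnn and not on the list, had values of 121, 104 and 184 CPM at 7 weeks, against 1.47, 0.394 and 1.5 CPM at 2.5 weeks (6.98 ± 0.40, adjusted p = 1.76e-08). No library of one age reached into the range of the other for either tenascin. Periostin, the Postn product that helps collagen assemble, averaged 4929 ± 640 CPM at 7 weeks and 2216 ± 505 CPM at 2.5 weeks (SD, n = 3 each, as for all means below), a change of 1.21 ± 0.16. Ccn4 and Ccn5, secreted relatives of connective tissue growth factor, changed by 3.74 ± 0.20 and 4.74 ± 0.21. Ccn2, the gene of that factor itself, fell, as did its relatives Ccn1 and Ccn3. Thbs4, a thrombospondin of tendon and injured muscle, had 3226, 3499 and 3478 CPM at 7 weeks, and 77.5, 343 and 499 CPM at 2.5 weeks (3.53 ± 0.44, adjusted p = 1.98e-05). Without replicate 1 of 7 weeks, 3 matricellular genes fell in place of 6.

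Among 11 fibrillar collagens, 6 rose and the other 5 were not called (median 0.66). Col1a1 and Col1a2, the chains of type I collagen, had 34261 ± 3931 and 19299 ± 1523 CPM at 7 weeks, and 22537 ± 3533 and 12767 ± 1964 CPM at 2.5 weeks, and each changed by 0.66 (SE 0.16 and 0.15). Type III collagen (Col3a1) averaged 65922 ± 5387 CPM at 7 weeks and 61209 ± 8284 CPM at 2.5 weeks and was not called (0.17 ± 0.13, adjusted p = 0.326), though it was without replicate 2 of 2.5 weeks (0.31, adjusted p = 0.0298). Of 30 collagen processing enzymes, 20 rose and 1 fell, with a median of 0.78. Lysyl oxidase (Lox), which cross-links collagen and elastin, had 1214, 1138 and 1154 CPM at 7 weeks, and 251, 291 and 409 CPM at 2.5 weeks (1.95 ± 0.16, adjusted p = 3.92e-07). Loxl3, of the same family, had 461, 438 and 463 CPM at 7 weeks, and 125, 148 and 119 CPM at 2.5 weeks (1.86 ± 0.12). The lysyl hydroxylase Plod2 and the collagen chaperone Fkbp10 changed by 1.51 ± 0.16 and 1.27 ± 0.13. The exception was Pcolce2, an enhancer of procollagen cleavage, which fell to 226 ± 19.7 CPM at 7 weeks, against 776 ± 81.3 CPM at 2.5 weeks (-1.71 ± 0.11). Among the 15 basement membrane and network-forming collagens tested, 6 rose and 2 fell, with a median of -0.03. The risers were led by Col8a1 at 586 ± 20.7 CPM at 7 weeks and 87.8 ± 13.9 CPM at 2.5 weeks (2.80 ± 0.14). Of 10 fibril-associated and other collagens tested, 2 rose and 4 fell (median -0.15).

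Elastic fibre genes split. Of 17 tested, 6 rose and 9 fell (median -0.42). Eln, the elastin gene, had 293, 264 and 305 CPM at 7 weeks, and 743, 1027 and 669 CPM at 2.5 weeks (-1.44 ± 0.18, adjusted p = 2e-05). Fbln5 and Efemp1, which encode fibulins, fell by 1.29 and 1.52 on the log2 scale (SE 0.11 each). Efemp2, another fibulin gene, rose to 561 ± 29 CPM at 7 weeks, against 152 ± 39.8 CPM at 2.5 weeks (1.94 ± 0.17). The fibulin genes thus did not move together. Ltbp4, a TGF-beta binding protein needed for elastic fibres and a known modifier of muscular dystrophy in mice, had 408, 523 and 496 CPM at 7 weeks, and 1603, 1252 and 1574 CPM at 2.5 weeks (-1.57 ± 0.13). Emilin1, another elastic fibre protein, went the other way with 476, 463 and 495 CPM at 7 weeks, against 38.8, 71.8 and 56.9 CPM at 2.5 weeks (3.15 ± 0.19, adjusted p = 2.38e-08). Among 27 proteoglycans and glycoproteins tested, 7 rose and 11 fell. Biglycan (Bgn) rose to 6781 ± 281 CPM at 7 weeks, against 1841 ± 86.6 CPM at 2.5 weeks (1.95 ± 0.11). From the same list, the basement membrane genes Nid1 (nidogen-1), Lama2 (the laminin chain lost in congenital muscular dystrophy) and Lamc1 fell by 1.48, 1.61 and 1.15 on the log2 scale (SE 0.10, 0.13 and 0.11). Nid2, the other nidogen gene on the list, rose. Has1, a hyaluronan synthase, was lower at 7 weeks in all libraries, with 2435 ± 55 CPM against 5309 ± 779 CPM at 2.5 weeks (-1.07 ± 0.13).

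Of 29 matrix-degrading enzymes and inhibitors tested, 15 rose and 8 fell. Collagenase-3, encoded by Mmp13, had 36.1, 65.6 and 98.5 CPM at 7 weeks, and 0.628, 0 and 0.215 CPM at 2.5 weeks (7.85 ± 0.54, adjusted p = 8.06e-08, and 9.04 without replicate 1 of 2.5 weeks). Stromelysin-1 (Mmp3) averaged 1234 ± 89.7 CPM at 7 weeks and 250 ± 38.8 CPM at 2.5 weeks (2.37 ± 0.14). Mmp19 changed by 4.11 ± 0.18, and its transcript overlaps Tmem198b on the opposite strand. The protease inhibitors did not move together. Timp1 had 1702, 1764 and 1317 CPM at 7 weeks, and 29.3, 133 and 152 CPM at 2.5 weeks (3.98 ± 0.41, adjusted p = 3.45e-06). Timp3 had 178, 154 and 146 CPM at 7 weeks, and 468, 496 and 448 CPM at 2.5 weeks (-1.50 ± 0.12). Plau, which encodes the protease urokinase, changed by 1.88 ± 0.15. Acta2, the smooth muscle actin of myofibroblasts, had 111, 64.7 and 73.5 CPM at 7 weeks, and 2.09, 3.15 and 3.22 CPM at 2.5 weeks (4.93 ± 0.31, adjusted p = 3.49e-08). Acta2 also marks pericytes and smooth muscle, whose 14 markers summed to 468 to 532 CPM at 7 weeks and 268 to 355 CPM at 2.5 weeks, and the part of such cells in the Acta2 level was not tested.

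**Figure D2:**
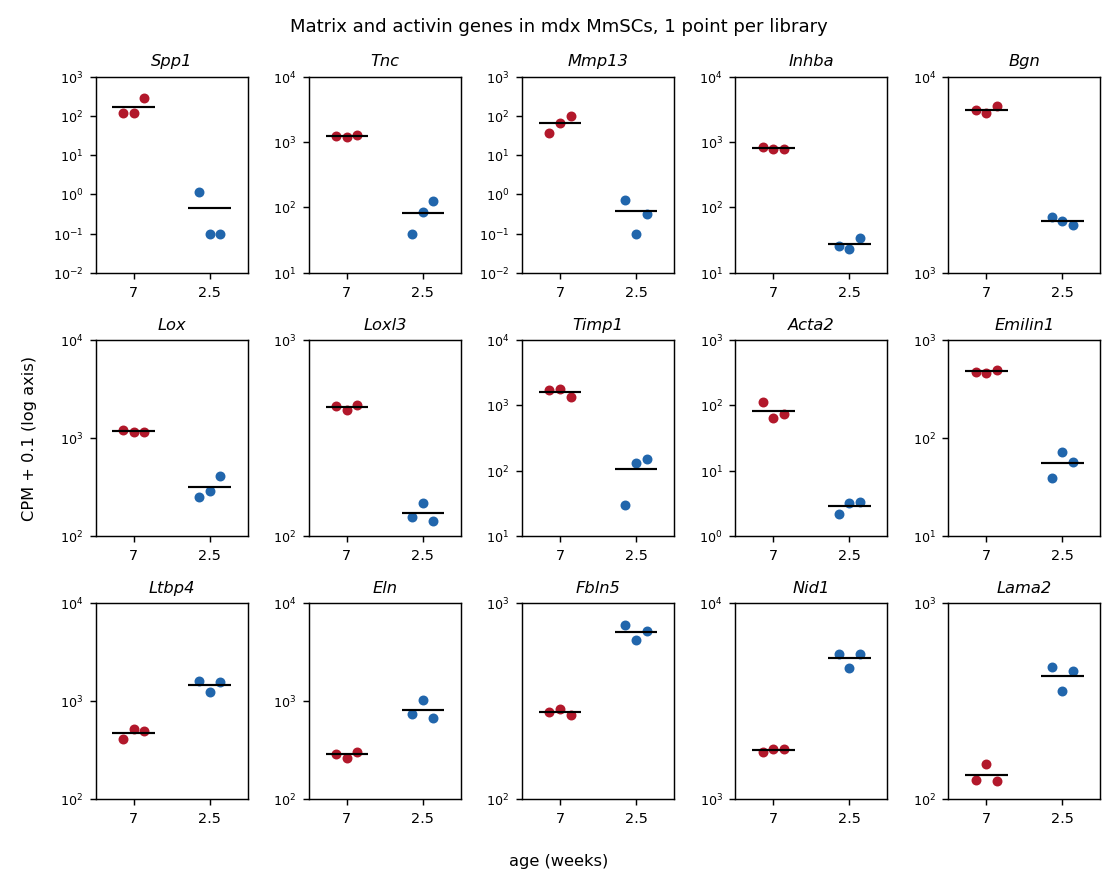
CPM plus 0.1 (log axis) of 15 matrix and activin genes in each of the 3 libraries of 7 weeks (red, left) and of 2.5 weeks (blue, right), with the mean as a bar. The 10 genes from Spp1 to Emilin1 lie higher at 7 weeks and the 5 from Ltbp4 to Lama2 lower, with no overlap between the ages in any of the 15.

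Among secreted factors of the TGF-beta family, the activin gene Inhba had the smallest p of the genes named here. Inhba (chr13:16011851-16031621, plus strand) encodes the chain of activin A, which restrains muscle growth and drives fibroblast activation. It had 853, 796 and 774 CPM at 7 weeks, and 25.3, 22.8 and 34.6 CPM at 2.5 weeks (4.94 ± 0.15, adjusted p = 9.99e-11). The ages were about 30.6-fold apart with little spread within either. Follistatin (Fst), which binds and blocks activin, averaged 110 ± 16.4 CPM at 7 weeks and 105 ± 11.6 CPM at 2.5 weeks and was not called (0.14 ± 0.13, adjusted p = 0.425). Of the follistatin-like genes on the TGF-beta pathway list, Fstl3 rose and Fstl1 fell. The TGF-beta ligands did not move together. Tgfb1 had 2.85, 2.5 and 2.94 CPM at 7 weeks, against 7.12, 5.12 and 3.44 CPM at 2.5 weeks, and was not called (-0.85 ± 0.42, adjusted p = 0.112). Tgfb2 rose (0.75 ± 0.12) and Tgfb3 fell (-0.53 ± 0.14), and Tgfb3 overlaps Ttll5 on the opposite strand.

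Of 26 TGF-beta pathway genes tested, 5 rose and 12 fell (median -0.40), and receptors and feedback inhibitors were among those that fell. The type I receptor Tgfbr1 averaged 35.3 ± 5.13 CPM at 7 weeks and 98.3 ± 6.82 CPM at 2.5 weeks (-1.42 ± 0.14). The co-receptor Tgfbr3 changed by -1.08 ± 0.13. Skil and Bambi, feedback inhibitors of the pathway, changed by -1.40 ± 0.14 and -1.90 ± 0.19.

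BMP and Wnt genes fell in larger part. Of 23 BMP pathway genes tested, 4 rose and 13 fell (median -0.74). Among ligands, Bmp7 had 8.72, 9.12 and 5.2 CPM at 7 weeks, and 67.9, 82.6 and 74.1 CPM at 2.5 weeks (-3.20 ± 0.20, adjusted p = 3.48e-08). Bmp2 had 46.6, 43.5 and 32.3 CPM at 7 weeks, and 208, 155 and 195 CPM at 2.5 weeks (-2.12 ± 0.16). Bmp3 and Bmp4 changed by -2.40 ± 0.22 and -1.88 ± 0.28, so 4 ligands were lower at 7 weeks in every library. Id3, a direct BMP target, averaged 204 ± 8.7 CPM at 7 weeks and 848 ± 227 CPM at 2.5 weeks (-1.98 ± 0.15). The extracellular modulators differed, with Bmper at 273 ± 27.6 CPM at 7 weeks and 38.9 ± 7.47 CPM at 2.5 weeks (2.88 ± 0.14), and the BMP antagonist Chrd changed by -1.44 ± 0.15.

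Of 31 Wnt pathway genes tested, 4 rose and 18 fell (median -0.79), with 7 rising when replicate 2 of 2.5 weeks was left out. The ligand Wnt5a averaged 14.8 ± 1.23 CPM at 7 weeks and 50.2 ± 7.73 CPM at 2.5 weeks (-1.69 ± 0.19). Wnt4 and Wnt2 changed by -3.06 ± 0.50 and -1.01 ± 0.19. The secreted Wnt antagonist Sfrp1 rose, with 123, 119 and 143 CPM at 7 weeks, and 22.4, 16.1 and 26.9 CPM at 2.5 weeks (2.63 ± 0.16, adjusted p = 3.54e-08). Another secreted antagonist gene, Dkk3, fell by 0.79 on the log2 scale (SE 0.21) with overlapping libraries. The antagonist gene Frzb changed by -2.22 ± 0.56, a call that was lost without replicate 1 of 2.5 weeks (-1.31, adjusted p = 0.058), so the antagonists did not move together. In the smaller Hedgehog list of 11 genes tested, 1 rose and 5 fell, among them the co-receptors Cdon (-1.62 ± 0.16) and Boc (-1.21 ± 0.19). In the Notch list of 10 genes tested, 2 rose and 4 fell. The Notch target Hes1 averaged 4.54 ± 1.59 CPM at 7 weeks and 23.5 ± 3.69 CPM at 2.5 weeks (-2.28 ± 0.26), while the receptor Notch1 changed by 1.27 ± 0.16.

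Genes of cell division were higher at 7 weeks. Mitotic genes peak when a cell divides, and in many of their promoters a cell cycle homology region (CHR) binds the DREAM repressor complex in resting cells. DNA replication genes carry E2F sites. Promoter windows of 5 called genes are printed, taken in order of p from those whose window held a match. The windows are RefSeq sequence of GRCm38.p6 from 250 bases before to 50 after the gene's start, 5' to 3' on the gene's strand. Capitals mark TTTGAA, the CHR letters, in the mitotic genes and the E2F letters (TTCGCGC, or else TTGGCGC, or else TTCCCGC) in the replication genes, searched on both strands. Racgap1 lies at chr15:99651607-99651906 (minus strand), Cdc20 at chr4:118437294-118437593 (minus), Mki67 at chr7:135716330-135716629 (minus), Uhrf1 at chr17:56303087-56303386 (plus) and Mcm5 at chr8:75109259-75109558 (plus). The start is RefSeq's, and the Mcm5 window ends before that gene's start in GENCODE M21, at 75109569.
Racgap1: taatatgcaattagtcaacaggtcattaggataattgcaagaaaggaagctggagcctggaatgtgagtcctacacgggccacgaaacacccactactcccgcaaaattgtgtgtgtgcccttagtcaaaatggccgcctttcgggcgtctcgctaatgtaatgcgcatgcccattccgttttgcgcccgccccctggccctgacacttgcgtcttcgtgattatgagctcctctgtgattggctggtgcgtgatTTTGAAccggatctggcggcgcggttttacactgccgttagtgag
Cdc20: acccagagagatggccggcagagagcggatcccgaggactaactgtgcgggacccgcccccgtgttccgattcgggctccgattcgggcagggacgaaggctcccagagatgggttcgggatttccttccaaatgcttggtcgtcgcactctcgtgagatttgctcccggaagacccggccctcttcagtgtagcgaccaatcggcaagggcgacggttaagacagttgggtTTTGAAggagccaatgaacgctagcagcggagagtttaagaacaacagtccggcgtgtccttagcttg
Mki67: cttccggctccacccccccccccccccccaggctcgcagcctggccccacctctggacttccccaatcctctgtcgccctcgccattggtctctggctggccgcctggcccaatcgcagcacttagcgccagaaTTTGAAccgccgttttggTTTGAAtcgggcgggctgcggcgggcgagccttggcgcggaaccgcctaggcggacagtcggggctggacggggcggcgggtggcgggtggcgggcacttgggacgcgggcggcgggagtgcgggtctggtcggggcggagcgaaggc
Uhrf1: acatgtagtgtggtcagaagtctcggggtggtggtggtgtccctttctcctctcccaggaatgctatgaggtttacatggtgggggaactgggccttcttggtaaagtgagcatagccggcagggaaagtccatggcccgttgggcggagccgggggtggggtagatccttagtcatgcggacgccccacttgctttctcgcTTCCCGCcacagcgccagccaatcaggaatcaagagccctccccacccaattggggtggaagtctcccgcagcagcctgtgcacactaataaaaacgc
Mcm5: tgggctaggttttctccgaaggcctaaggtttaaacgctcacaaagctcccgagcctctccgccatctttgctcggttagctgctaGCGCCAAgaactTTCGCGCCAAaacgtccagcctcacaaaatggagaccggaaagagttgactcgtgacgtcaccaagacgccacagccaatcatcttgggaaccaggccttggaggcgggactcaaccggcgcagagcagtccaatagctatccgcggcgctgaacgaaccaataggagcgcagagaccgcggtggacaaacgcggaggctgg
Windows without a match were passed over, so the presence of a match in these 5 is no result. Racgap1 and Cdc20 hold 1 CHR match each, and Mki67 holds 2. Uhrf1 holds 1 E2F match, and Mcm5 holds 3, of which 2 overlap. The called mitotic genes with a window held TTTGAA in 19 of 26 windows (73.1%), against 17.9% of all 32851 windows, and CCAAT in 21 of 26 (80.8%), against 37.4%. The called replication genes held an E2F match in 16 of 26 windows (61.5%), against 8.07% of all windows. A match describes the letters and does not show that a factor binds there. Genes called in either direction were pooled and members not called were not counted, so these shares do not bear on the change with age.

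Of 38 mitotic genes tested, 29 rose and the other 9 were not called, with a median change of 2.36. Racgap1, a regulator of cytokinesis, had 35.7, 23.6 and 29.6 CPM at 7 weeks, and 0.838, 4.72 and 2.15 CPM at 2.5 weeks (3.55 ± 0.41, adjusted p = 1.01e-05). The proliferation marker Mki67 had 24.2, 15.9 and 17.9 CPM at 7 weeks, and 1.05, 5.12 and 1.07 CPM at 2.5 weeks (3.02 ± 0.43, adjusted p = 7.93e-05). Cyclin A2 (Ccna2) averaged 23.1 ± 3.07 CPM at 7 weeks and 3.2 ± 3.42 CPM at 2.5 weeks (2.87 ± 0.47). Cdc20, the activator of the anaphase-promoting complex, averaged 21.5 ± 6.75 CPM at 7 weeks and 5.92 ± 0.782 CPM at 2.5 weeks (1.92 ± 0.27). It overlaps Elovl1 on the opposite strand and Ccna2 overlaps Exosc9, and without a stated strand setting their reads cannot be told apart. Replicate 2 of 2.5 weeks was the highest of its age for this group. Summed over the 40 mitotic genes, the libraries had 608, 445 and 412 CPM at 7 weeks, and 58.4, 188 and 52 CPM at 2.5 weeks. Without replicate 2 the changes were larger: 4.39 for Racgap1, 4.25 for Mki67 and 4.25 for Ccna2.

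Of 37 DNA replication genes tested, 23 rose and 2 fell (median 1.09). Uhrf1, which copies DNA methylation at the fork, averaged 30.5 ± 7.3 CPM at 7 weeks and 3.56 ± 1.04 CPM at 2.5 weeks (3.15 ± 0.31). Mcm5, a subunit of the replicative helicase, had 54.5, 49.2 and 43.2 CPM at 7 weeks, and 4.19, 10.4 and 10.7 CPM at 2.5 weeks (2.59 ± 0.26, adjusted p = 3.37e-06). Thymidylate synthase (Tyms) changed by 2.51 ± 0.28. Several inhibitors of the cycle were lower. Of 12 CDK inhibitors, pocket proteins and D cyclins tested, 1 rose and 7 fell (median -0.90). Cdkn1a, encoding the inhibitor p21, had 266, 263 and 257 CPM at 7 weeks, and 859, 542 and 814 CPM at 2.5 weeks (-1.43 ± 0.14, adjusted p = 2.89e-06). Cdkn1c, encoding p57, averaged 6.92 ± 1.01 CPM at 7 weeks and 24.6 ± 5.59 CPM at 2.5 weeks (-1.75 ± 0.25). Of the D cyclins, which promote the cycle, Ccnd3 changed by -1.63 ± 0.13 (it overlaps Bysl on the opposite strand) and Ccnd2 by -0.99 ± 0.12, while Ccnd1 was not called (0.00 ± 0.24, adjusted p = 0.993). The pocket protein Rbl2 changed by -1.94 ± 0.27 and overlaps Aktip on the opposite strand. The 1 that rose, Cdkn2b, encoding the inhibitor p15, was low at both ages (2.21 ± 0.442 CPM at 7 weeks, 0.341 ± 0.318 CPM at 2.5 weeks). At 12.5 weeks the summed mitotic level was 146 and 119 CPM, below all 3 libraries of 7 weeks. It lay within the range of 2.5 weeks only through replicate 2 (188 CPM), and above replicates 1 and 3 (58.4 and 52 CPM). DNA replication genes summed to 370 and 417 CPM there, against 912, 828 and 685 CPM at 7 weeks.

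**Figure D3:**
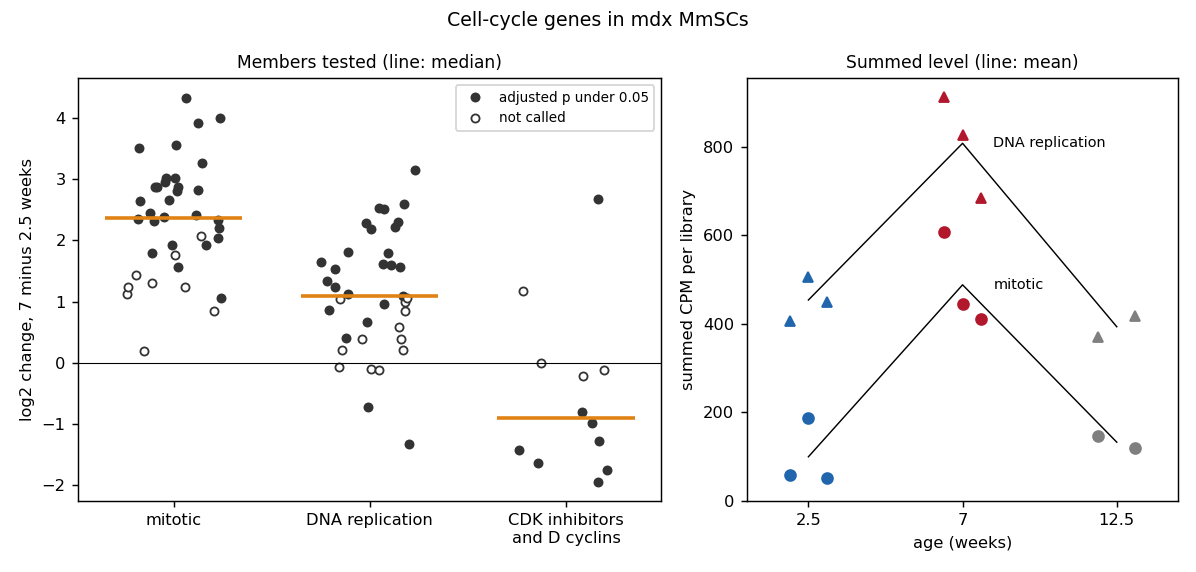
Left: log2 change, 7 minus 2.5 weeks, of each tested mitotic, DNA replication and CDK inhibitor or D cyclin gene (filled, adjusted p under 0.05, with the list's median as an orange line). Right: summed CPM of the mitotic (circles) and DNA replication genes (triangles) in each library at 2.5, 7 and 12.5 weeks, with lines through the means. Mitotic sums lie at 412 to 608 CPM at 7 weeks and at 52 to 188 CPM at 2.5 weeks.

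The fetal and postnatal growth programme was lower at 7 weeks. Imprinted genes are expressed from the allele of 1 parent, and many of them promote or restrain growth and shut down together as mice mature. Of 25 tested, 18 fell and the other 7 were not called (median -0.78). Igf2 (chr7:142650766-142666816, minus strand), the fetal insulin-like growth factor, had 1.34, 0.179 and 0.678 CPM at 7 weeks, and 133, 97.6 and 94.6 CPM at 2.5 weeks (-7.06 ± 0.31, adjusted p = 2.37e-09, and -7.91 without replicate 1 of 7 weeks). It was thus near absent in every 7-week library. H19, the noncoding RNA beside Igf2 (chr7:142575529-142578143, minus strand), had 176, 116 and 112 CPM at 7 weeks, and 1444, 1246 and 1007 CPM at 2.5 weeks (-3.13 ± 0.22, adjusted p = 8.06e-08). Peg3 and its neighbour Zim1 changed by -2.65 ± 0.24 and -3.07 ± 0.27. Dlk1, a Notch-like protein of immature stroma, had 6.38, 2.5 and 1.81 CPM at 7 weeks, and 62.4, 15.5 and 26.2 CPM at 2.5 weeks (-3.15 ± 0.48). Leaving out single libraries moved Dlk1 to -2.46 without replicate 1 of 2.5 weeks and -3.89 without replicate 1 of 7 weeks. Plagl1, a regulator of this gene network, averaged 119 ± 15.7 CPM at 7 weeks and 248 ± 32.3 CPM at 2.5 weeks and fell as well (adjusted p = 3.87e-05). Summed over the 28 listed genes, the libraries had 2572, 2135 and 2470 CPM at 7 weeks, and 6355, 5114 and 5289 CPM at 2.5 weeks. Nrk, an X-linked kinase gene known from placenta, also stood among the 15 lowest genes, with 9.73, 4.11 and 2.94 CPM at 7 weeks, and 102, 78.3 and 65.5 CPM at 2.5 weeks (-3.76 ± 0.31, and -4.44 without replicate 1 of 7 weeks).

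Of 22 genes of the growth hormone and IGF axis tested, 3 rose and 15 fell (median -1.09). Igf1, which MmSCs secrete and which supports muscle growth, had 629, 596 and 591 CPM at 7 weeks, and 1052, 1094 and 1017 CPM at 2.5 weeks (-0.74 ± 0.10, adjusted p = 6.21e-05). The adaptors of the insulin and IGF receptors, Irs1 and Irs2, changed by -1.76 ± 0.20 and -1.55 ± 0.15. The RNA-binding protein gene Igf2bp2 changed by -1.43 ± 0.13. The IGF-binding proteins went both ways. Igfbp5 had 345 ± 39.1 CPM at 7 weeks and 1077 ± 149 CPM at 2.5 weeks (-1.58 ± 0.14), and Igfbp6 changed by -0.99 ± 0.11. Igfbp4 had 2246 ± 56.3 CPM at 7 weeks and 677 ± 141 CPM at 2.5 weeks (1.79 ± 0.14).

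**Figure D4:**
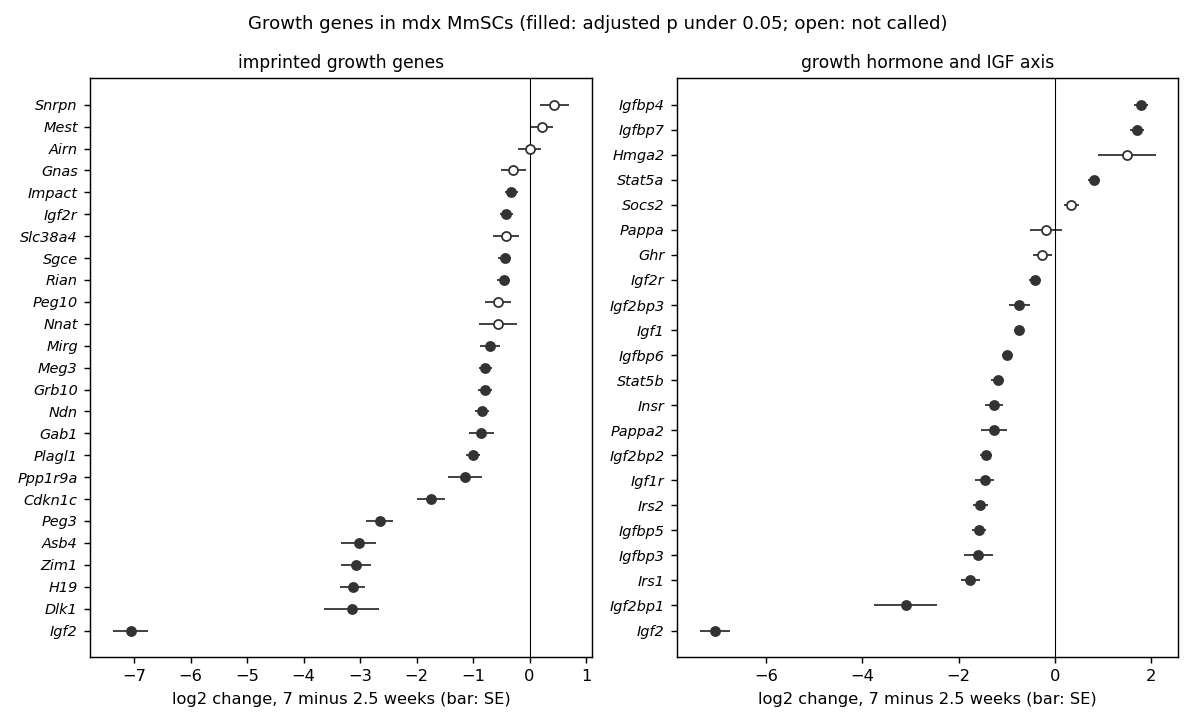
Log2 change, 7 minus 2.5 weeks, with its standard error, of each tested imprinted growth gene (left) and each tested gene of the growth hormone and IGF axis (right). Filled points have an adjusted p under 0.05. Igf2 lies at -7.06 in both panels, and Igfbp4, at 1.79, is the highest of the right panel.

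Growth factors that act on regenerating muscle and its nerves were mixed: of 28 tested, 12 rose and 8 fell (median 0.51), with 5 falling when replicate 1 of 7 weeks was left out. Gdnf, a factor for motor neurons, averaged 27.6 ± 3.42 CPM at 7 weeks and 4.91 ± 1.64 CPM at 2.5 weeks (2.54 ± 0.26). The neurotrophin gene Bdnf changed by 1.95 ± 0.19. Pdgfa, the ligand of the stromal receptor, had 32.2, 24.5 and 36.6 CPM at 7 weeks, and 6.28, 2.16 and 2.79 CPM at 2.5 weeks (3.12 ± 0.33, adjusted p = 4.41e-06). Fgf2 went down, with 11.9 ± 2.02 CPM at 7 weeks and 51 ± 9.22 CPM at 2.5 weeks (-2.05 ± 0.19). Among 26 angiogenic and guidance genes tested, 5 rose and 10 fell, led by the placental growth factor gene Pgf at 24.9 ± 3.17 CPM at 7 weeks and 171 ± 45.4 CPM at 2.5 weeks (-2.71 ± 0.18).

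Chemokine genes rose in larger part. Of 22 chemokines and colony-stimulating factors tested (10 more of the list did not pass the low-count filter), 15 rose and 4 fell, with a median change of 1.37. Without replicate 2 of 7 weeks, 2 fell in place of 4. Cxcl14 (chr13:56288643-56296551, minus strand), a chemokine made by fibroblasts and epithelia, had 638, 791 and 631 CPM at 7 weeks, and 4.19, 12 and 21.5 CPM at 2.5 weeks (5.84 ± 0.34, adjusted p = 1.84e-08, and 6.43 without replicate 3 of 2.5 weeks). Resting C57BL/6J MmSCs held 536, 470 and 723 CPM of Cxcl14, a level near that of 7-week mdx cells. The neutrophil chemokine Cxcl5 (chr5:90759360-90761624, plus strand) had 1930, 2352 and 1247 CPM at 7 weeks, and 45.7, 127 and 239 CPM at 2.5 weeks (3.80 ± 0.42, adjusted p = 6.79e-06, and 4.44 without replicate 3 of 2.5 weeks). Its level in the resting cells was 0.399, 0.188 and 0.199 CPM. Cxcl3, which acts on the same receptor, changed by 3.75 ± 0.23. The lymphocyte and stem cell chemokine Cxcl12 had 1036, 1179 and 1049 CPM at 7 weeks, and 250, 345 and 309 CPM at 2.5 weeks (1.91 ± 0.14). Monocyte chemokines rose as well. Ccl7 had 1604 ± 243 CPM at 7 weeks and 598 ± 88.8 CPM at 2.5 weeks (1.49 ± 0.14), and Ccl2 had 3407, 3530 and 2306 CPM at 7 weeks, and 1449, 1868 and 1674 CPM at 2.5 weeks (0.95 ± 0.16, adjusted p = 0.000256). Csf1, the macrophage growth factor, changed by 1.25 ± 0.14, and the eosinophil chemokine Ccl11 by -0.85 ± 0.21.

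Not every early inflammatory transcript moved. Il6 had 222, 197 and 140 CPM at 7 weeks, and 99.9, 178 and 149 CPM at 2.5 weeks, and was not called (0.44 ± 0.20, adjusted p = 0.0835). It was called without replicate 2 of 2.5 weeks (0.68, adjusted p = 0.00383) and without replicate 3 of 7 weeks (0.61, adjusted p = 0.0367). Cxcl1 had 5096, 5218 and 3586 CPM at 7 weeks, and 3234, 4938 and 4024 CPM at 2.5 weeks (0.24 ± 0.17, adjusted p = 0.256), and was called without replicate 2 of 2.5 weeks (0.44, adjusted p = 0.0158). The ages overlapped for both genes. Cxcl2 changed by 0.84 ± 0.26 (adjusted p = 0.0156) with overlapping libraries, and its call was lost in 4 of the leave-one-out fits, with adjusted p up to 0.0719 without replicate 2 of 7 weeks. In the resting cells Il6 had 0, 0.563 and 0.596 CPM and Cxcl1 30.2, 32.7 and 84.3 CPM, so both transcripts stood higher in the mdx libraries of either age, though experiment, genotype and age cannot be told apart there.

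Of 25 inflammatory cytokine and receptor genes tested, 10 rose and 4 fell (median 0.33). The alarmin Il33, which supports regulatory T cells in muscle, had 1826, 1754 and 1513 CPM at 7 weeks, and 70.6, 302 and 281 CPM at 2.5 weeks (3.01 ± 0.37, adjusted p = 1.76e-05). Its receptor gene Il1rl1 had 1833, 2389 and 1500 CPM at 7 weeks, and 59.5, 219 and 138 CPM at 2.5 weeks (3.83 ± 0.35, adjusted p = 1.13e-06). Ligand and receptor were thus both higher in every 7-week library. Il1r1, the interleukin-1 receptor, averaged 429 ± 20.3 CPM at 7 weeks and 155 ± 45.3 CPM at 2.5 weeks (1.52 ± 0.18). Lif and Il11, cytokines of the interleukin-6 family, changed by 2.58 ± 0.35 and 2.23 ± 0.21. Il6ra, the interleukin-6 receptor, fell to 41.6 ± 3.78 CPM at 7 weeks, against 163 ± 5.45 CPM at 2.5 weeks (-1.91 ± 0.13). Il1b was at or near 0 in all 6 libraries, with at most 0.226 CPM.

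NF-kB targets as a list stood near the background: of 26 tested, 7 rose and 5 fell (median 0.06), with 3 falling without replicate 3 of 2.5 weeks or replicate 1 of 7 weeks. Vcam1, an adhesion molecule for leukocytes, had 448, 500 and 439 CPM at 7 weeks, and 13.6, 34.6 and 21.5 CPM at 2.5 weeks (4.36 ± 0.25, adjusted p = 1.84e-08). Icam1, another such molecule, went the other way at 329 ± 52.7 CPM at 7 weeks and 636 ± 111 CPM at 2.5 weeks (-0.88 ± 0.14). The feedback inhibitor Tnfaip3 changed by 0.98 ± 0.13, while Nfkbia was not called (0.09 ± 0.12, adjusted p = 0.557). Among 21 STAT3 and acute-phase genes tested, 9 rose and 5 fell (median 0.37). Secreted acute-phase proteins were among the risers. Haptoglobin (Hp) had 105, 193 and 159 CPM at 7 weeks, and 1.26, 1.57 and 6.02 CPM at 2.5 weeks (5.76 ± 0.38, adjusted p = 5.46e-08, and 6.77 without replicate 3 of 2.5 weeks). Lcn2, which sequesters iron from bacteria, changed by 4.68 ± 0.40, and by 5.34 without replicate 3 of 2.5 weeks. Stat3 itself and its feedback gene Socs3 were lower at 7 weeks, with changes of -0.78 ± 0.10 and -0.94 ± 0.15, and Stat3 overlaps Stat5a on the opposite strand. Saa3, an acute-phase serum amyloid, had 54.4, 147 and 91.5 CPM at 7 weeks, and 3.14, 1.97 and 142 CPM at 2.5 weeks and was not called (1.07 ± 0.91, adjusted p = 0.36). Replicate 3 of 2.5 weeks alone was high, and without it the change was 5.31 (adjusted p = 9.71e-05).

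Complement genes, the soluble arm of innate defence, held 12 risers and 3 fallers among 19 tested (median 1.01). C3 had 2718, 3595 and 3524 CPM at 7 weeks, and 290, 738 and 1115 CPM at 2.5 weeks (2.26 ± 0.33, adjusted p = 8.3e-05). Cfb, of the alternative pathway, averaged 90.7 ± 12.9 CPM at 7 weeks and 9.14 ± 4.12 CPM at 2.5 weeks (3.36 ± 0.25). C4b changed by 2.47 ± 0.19, but its reads are shared with its near-identical neighbour C4a and the split between them is uncertain. Interferon response genes changed in both directions: 18 of 49 tested rose and 14 fell (median -0.05). Irf1 (chr11:53770014-53778374, plus strand), the transcription factor of the interferon-gamma response, had 39.8, 45.6 and 49.7 CPM at 7 weeks, and 535, 341 and 511 CPM at 2.5 weeks (-3.29 ± 0.17, adjusted p = 7.15e-09). The GTPase gene Irgm1 averaged 44 ± 4.77 CPM at 7 weeks and 254 ± 58.6 CPM at 2.5 weeks (-2.46 ± 0.16). On the other side, Bst2, which tethers budding viruses, averaged 58.5 ± 2.1 CPM at 7 weeks and 10.3 ± 0.391 CPM at 2.5 weeks (2.56 ± 0.15). Ifi27l2a, a small interferon-induced mitochondrial protein gene, changed by 3.47 ± 0.34, and by 4.35 without replicate 2 of 2.5 weeks. Of 21 antigen presentation genes tested, 12 rose and 2 fell (median 0.68), with 1 falling in most alternatives, replicate 1 or 2 of either age left out among them. The class I genes H2-D1 and B2m changed by 1.04 ± 0.12 and 0.70 ± 0.11, where H2-D1 belongs to a family of near-identical genes.

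**Figure D5:**
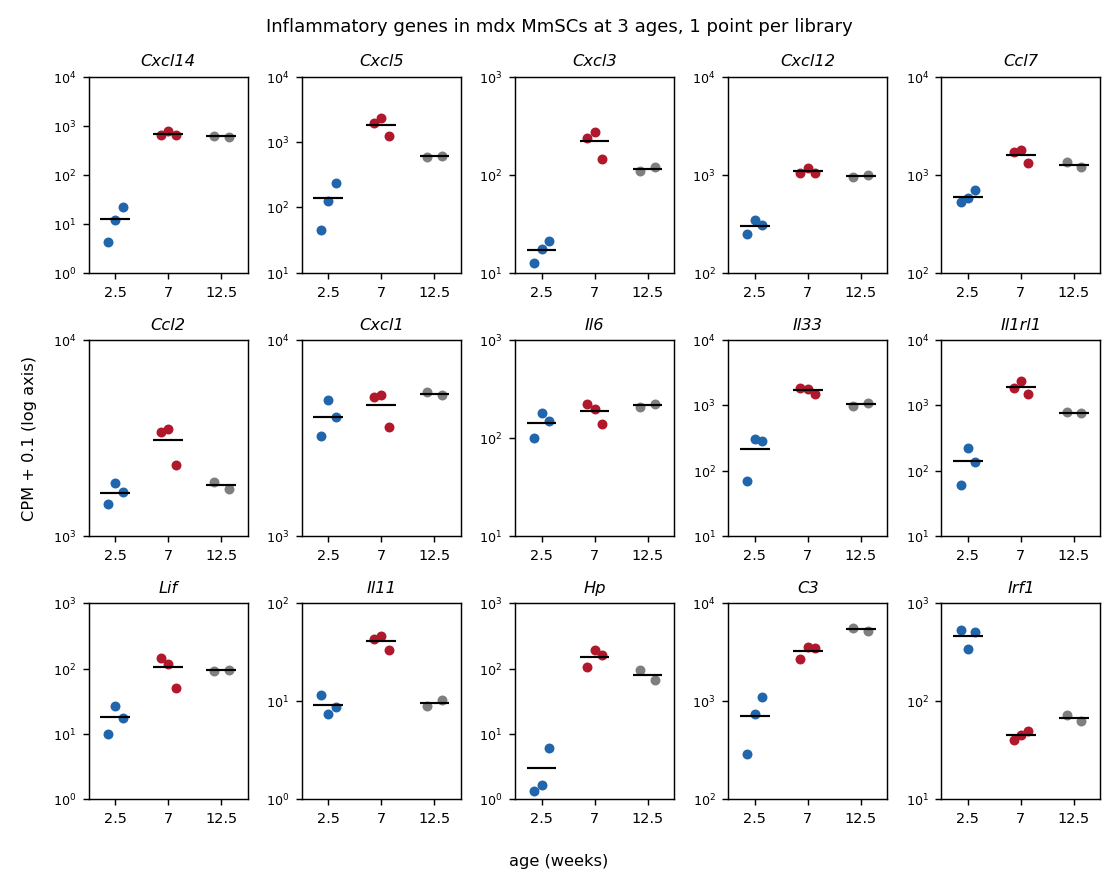
CPM plus 0.1 (log axis) of 15 inflammatory genes in each mdx library at 2.5 weeks (blue, 3 libraries), 7 weeks (red, 3) and 12.5 weeks (grey, 2), with the mean as a bar. Cxcl5 lies between 1247 and 2352 CPM at 7 weeks and between 45.7 and 239 CPM at 2.5 weeks, while Il6 and Cxcl1 overlap between these ages and Irf1 runs the other way.

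Stress, hormone and clock genes were mostly lower at 7 weeks. The immediate-early list, whose genes respond within minutes to growth factors and also to tissue digestion, had 3 genes rising and 18 falling of 30 tested (median -0.67). Summed CPM of its 31 genes was 8029, 7925 and 8760 at 7 weeks, and 19056, 13403 and 17546 at 2.5 weeks. In the resting C57BL/6J cells it was 3353, 3095 and 4986. Atf3, a stress-induced factor, had 352, 352 and 492 CPM at 7 weeks, and 1898, 1423 and 1800 CPM at 2.5 weeks (-2.03 ± 0.15, adjusted p = 1.57e-07). Egr1, a serum-response gene, had 301, 252 and 344 CPM at 7 weeks, and 1756, 863 and 1469 CPM at 2.5 weeks (-2.11 ± 0.20). Digestion and sorting also raise these transcripts, and whether handling differed between the ages was not tested.

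Of 18 glucocorticoid-induced genes tested, 3 rose and 11 fell (median -0.59). Tsc22d3, which encodes the anti-inflammatory mediator GILZ, had 79, 115 and 98.8 CPM at 7 weeks, and 583, 344 and 612 CPM at 2.5 weeks (-2.32 ± 0.19, adjusted p = 4.36e-07). Zbtb16, a classical glucocorticoid target in fibroblasts, had 3.19, 3.22 and 0.904 CPM at 7 weeks, and 42.1, 31.3 and 44.1 CPM at 2.5 weeks (-3.87 ± 0.31, adjusted p = 3.29e-07). Klf9 changed by -1.13 ± 0.11. The 3 risers were Angptl4, an inhibitor of lipoprotein lipase (3.82 ± 0.23), the kinase gene Sgk1 (1.42 ± 0.11) and Lcn2, which also stands in the acute-phase list.

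Of 18 circadian clock genes tested, 12 fell and 2 rose (median -0.90), with 0 to 1 rising when replicate 2 or 3 of 7 weeks or replicate 3 of 2.5 weeks was left out. The repressor Cry1 averaged 28.6 ± 3.16 CPM at 7 weeks and 77.8 ± 15.8 CPM at 2.5 weeks (-1.37 ± 0.17). Per1 changed by -0.76 ± 0.12, and the output genes Tef and Hlf by -1.68 ± 0.22 and -3.12 ± 0.55. The labels used here give no time of day for the collections, so the hour and the age cannot be told apart in these genes. Of the clock genes called in either direction and with a promoter window, 5 of 16 windows (31.2%) held the E-box letters CACGTG, against 7.15% of all windows. Clock genes that were not called were not counted, so this share does not bear on the change with age.

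Markers of stromal subtypes also changed. Adventitial progenitors are the DPP4+ PI16+ fibroblasts around vessels, from which other fibroblasts are thought to arise. Of 20 of their genes tested, 15 fell and the other 5 were not called (median -0.86). Dpp4 (chr2:62330073-62412231, minus strand) had 142, 131 and 121 CPM at 7 weeks, and 475, 476 and 447 CPM at 2.5 weeks (-1.76 ± 0.12, adjusted p = 6.53e-08). Pi16 had 821, 1003 and 723 CPM at 7 weeks, and 1288, 1851 and 1716 CPM at 2.5 weeks (-0.87 ± 0.15, adjusted p = 0.000422). The guidance factor gene Sema3c averaged 281 ± 17.8 CPM at 7 weeks and 1035 ± 230 CPM at 2.5 weeks (-1.82 ± 0.16). Genes of the muscle interior, the stroma between fibres, went both ways with 8 of 19 rising and 6 falling (median 0.28). Vcam1 and Cxcl14 led the rise, Smoc2 changed by 1.43 ± 0.13, and Enpp2, which makes lysophosphatidic acid, by -1.26 ± 0.16.

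Among 37 mesenchymal transcription factors tested, 7 rose and 11 fell (median -0.02), near the background, with 6 or 7 falling without replicate 3 of 2.5 weeks or replicate 1 or 2 of 7 weeks. Runx2, the master factor of bone formation, had 43.5, 43.8 and 36.6 CPM at 7 weeks, and 0.838, 3.74 and 5.16 CPM at 2.5 weeks (3.72 ± 0.32, adjusted p = 6.88e-07), and overlaps Supt3 on the opposite strand. Sox9, the factor of cartilage, changed by 1.83 ± 0.18 and Osr1, a factor of muscle connective tissue, by 1.90 ± 0.17. Ebf2, a factor of adipocyte precursors, averaged 55.6 ± 5.47 CPM at 7 weeks and 180 ± 27.7 CPM at 2.5 weeks (-1.63 ± 0.14). Of 21 adipogenic genes tested, 2 rose and 7 fell, and 4 rose without replicate 2 of 2.5 weeks. Tendon cell markers (11 genes) summed to 4131 to 4818 CPM at 7 weeks and 1463 to 2325 CPM at 2.5 weeks, of which Thbs4 was the largest. Of the 10 tested, 5 rose and 2, Egr1 and Egr2, fell. Tnmd, the more specific tendon gene, had 34.1, 37.9 and 45.4 CPM at 7 weeks, and 5.45, 15.1 and 14 CPM at 2.5 weeks (1.81 ± 0.33, adjusted p = 0.000587). The part of tendon cells in the matrix genes above was not tested. Tek had 35.1, 45.4 and 44.5 CPM at 7 weeks, and 432, 374 and 390 CPM at 2.5 weeks (-3.20 ± 0.15, adjusted p = 3.1e-09), while the endothelial gene Pecam1 was at most 4.51 CPM in any of the 6 libraries.

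Genes of oxidative phosphorylation rose. Of 46 nuclear genes on that list, 36 rose and the other 10 were not called (median 0.57), a small shift shared by most of the list. Their summed CPM was 5789, 5807 and 5043 at 7 weeks, and 3901, 4528 and 3977 at 2.5 weeks, with no overlap. Mitochondrial transcripts also took a larger share of all counts, 0.566% to 0.647% at 7 weeks and 0.369% to 0.439% at 2.5 weeks. The share of Gm10800, a repeat-rich gene model, was 0.329% to 0.383% at 7 weeks and 0.679% to 0.784% at 2.5 weeks, and the part of such library differences in these changes was not tested. Ndufa4, a subunit of the respiratory chain, averaged 151 ± 22 CPM at 7 weeks and 86.4 ± 8.52 CPM at 2.5 weeks (0.86 ± 0.14). Of 23 glycolysis genes tested, 11 rose and 4 fell (median 0.38), and 2 fell without replicate 1 or 3 of 7 weeks or replicate 3 of 2.5 weeks. Pyruvate kinase (Pkm) had 810, 702 and 728 CPM at 7 weeks, and 210, 202 and 249 CPM at 2.5 weeks (1.83 ± 0.12, adjusted p = 4.24e-08). Pdk4, which keeps pyruvate out of mitochondria, fell to 2.27 ± 1.38 CPM at 7 weeks, against 22.8 ± 12.4 CPM at 2.5 weeks (-3.19 ± 0.46, and -3.82 without replicate 1 of 7 weeks).

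Of 73 cytosolic ribosomal protein genes, 18 rose (24.7%), close to the 21.9% of all genes, and 9 did so without replicate 1 of 2.5 weeks or replicate 1 or 2 of 7 weeks. Of 26 unfolded protein and secretory genes, 15 rose and 6 fell (median 0.70). The risers included Sec61b of the translocation channel (1.59 ± 0.22) and the fallers the stress-induced chaperones Hspa5, encoding BiP (-0.58 ± 0.11), and Dnajb9 (-1.30 ± 0.13). Other chaperone genes of the list were among the risers, so the chaperones did not move together. Of 25 cholesterol synthesis genes tested, 9 rose and 2 fell, and the count of risers was 17 without replicate 2 of 2.5 weeks, but 5 without its replicate 3 or without replicate 2 of 7 weeks. Ribosome biogenesis genes rose in 6 of 23, and in 13 without replicate 2 of 2.5 weeks. Of 20 p53 target genes, 5 rose and 8 fell (median -0.22).

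Retinoid metabolism and the vitamin D receptor changed strongly. Of 13 retinoid genes tested, 9 rose and 3 fell (median 1.16). Aldh1a2, which makes retinoic acid, had 253, 282 and 172 CPM at 7 weeks, and 11.5, 22.2 and 26.9 CPM at 2.5 weeks (3.60 ± 0.26, adjusted p = 1.34e-07). Its relatives Aldh1a1 and Aldh1a3 fell by 1.40 and 1.70 on the log2 scale (SE 0.19 and 0.17). Vdr had 22.8, 25.4 and 17.4 CPM at 7 weeks, and 1.05, 0.394 and 0.215 CPM at 2.5 weeks (5.31 ± 0.38, adjusted p = 1.02e-07, and 6.07 without replicate 1 of 2.5 weeks).

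The other genes with the highest changes were of varied function. Nfasc, a cell adhesion molecule of axons, had 29.7, 34.7 and 50.4 CPM at 7 weeks, and 0.209, 0.787 and 0.645 CPM at 2.5 weeks (6.11 ± 0.35, adjusted p = 1.95e-08). Sema7a, a membrane-bound semaphorin, had 37.9, 31.7 and 42 CPM at 7 weeks, and 0.209, 0.984 and 0.86 CPM at 2.5 weeks (5.76 ± 0.33). Both were near absent at 2.5 weeks. Gpr176, an orphan receptor gene, changed by 5.96 ± 0.46 and by 5.37 to 8.69 when single libraries of 2.5 weeks were left out. The potassium channel gene Kcnj15 had 16.8, 19.1 and 28.3 CPM at 7 weeks, and 3 counts in all at 2.5 weeks, a ratio of 101 (95% counting interval 34.1 to 490). Slpi, a secreted protease inhibitor, rose to 15.8 ± 3.07 CPM at 7 weeks, against 0.352 ± 0.45 CPM at 2.5 weeks (5.47 ± 0.54, and 7.00 without replicate 3 of 2.5 weeks). Lmcd1, a co-regulator of muscle-type transcription, averaged 264 ± 10.7 CPM at 7 weeks and 9.87 ± 3.93 CPM at 2.5 weeks (4.81 ± 0.20). The oxysterol hydroxylase gene Cyp7b1 changed by 4.80 ± 0.28, and by 5.52 without replicate 2 of 2.5 weeks.

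At the low end, the glycosidase gene Engase averaged 1.98 ± 0.945 CPM at 7 weeks and 36.5 ± 2.92 CPM at 2.5 weeks (-4.08 ± 0.37). Spock3, a matrix proteoglycan gene, had 1.68, 1.25 and 0.226 CPM at 7 weeks, and 13.8, 21.6 and 20.8 CPM at 2.5 weeks (-3.99 ± 0.41, adjusted p = 3.75e-06). The tight junction gene Cldn3 averaged 1.46 ± 0.244 CPM at 7 weeks and 17.3 ± 0.876 CPM at 2.5 weeks (-3.50 ± 0.31). Mturn, named for a role in neural progenitor maturation, averaged 11.4 ± 3.38 CPM at 7 weeks and 109 ± 28 CPM at 2.5 weeks (-3.20 ± 0.22). The ephrin receptor gene Epha7 and the X-linked genes Dcaf12l1 and Gpr165 changed by -3.50 ± 0.46, -3.52 ± 0.30 and -3.43 ± 0.36. The sensory receptor gene Mrgprg had 1 count at 7 weeks, and 5.24, 52.7 and 14 CPM at 2.5 weeks, a ratio of 394 (95% counting interval 70.3 to 15611). The chloride channel gene Clic5 and Akr1c18, a progesterone-degrading enzyme gene, changed by -4.37 ± 0.66 and -4.25 ± 0.75. They varied between the 2.5-week libraries, with 39.6, 11 and 13.8 CPM of Clic5 and 11.7, 43.7 and 7.74 CPM of Akr1c18, and ranged from -3.61 to -5.78 and from -3.08 to -5.27 when single libraries were left out. Sh3gl2, an endocytosis gene, changed by -3.38 ± 0.33, by -3.97 without replicate 1 of 7 weeks, and overlaps Adamtsl1 on the same strand.

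Fewer genes were called between 12.5 and 7 weeks. In 12.5 against 7 weeks, 777 of 13160 genes were called (5.9%), 463 higher (3.52%) and 314 lower (2.39%). That comparison has 2 libraries of 12.5 weeks and shares the 7-week libraries with the one above. Its count fell to 137 or 140 without either of these 2 libraries and to 253, 380 and 481 without replicate 1, 2 and 3 of 7 weeks, and was 1618 without replicate 2 of 2.5 weeks. Spp1 had 54.3 and 51.9 CPM at 12.5 weeks (change from 7 weeks -1.61 ± 0.35, adjusted p = 0.0139). Inhba had 386 and 385 CPM (-0.97 ± 0.15, adjusted p = 0.00197). Both therefore stood above their 2.5-week and below their 7-week levels. Cxcl14 had 622 and 594 CPM and was not called (-0.08 ± 0.29, adjusted p = 0.915). Il6 had 206 and 223 CPM and Cxcl1 5397 and 5226 CPM, and neither was called. C3 had 5629 and 5244 CPM, a change of 0.82 ± 0.34 that was not called (adjusted p = 0.182). H19 fell further, to 15.6 and 31.1 CPM (-2.48 ± 0.27, adjusted p = 0.000287), near the 25.5, 52 and 19.5 CPM of resting C57BL/6J cells. Has1, lower at 7 than at 2.5 weeks, had 4305 and 4491 CPM at 12.5 weeks (0.95 ± 0.14, adjusted p = 0.00174). Gsn, the gelsolin gene, had 15024 ± 3368 CPM at 7 weeks and 33598 ± 4325 CPM at 2.5 weeks (-1.10 ± 0.15), and 47729 and 48604 CPM at 12.5 weeks (1.77 ± 0.17, adjusted p = 0.000179).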

How the data were processed

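The deposited table holds raw read counts per gene, made by the authors with STAR 2.7.3a and featureCounts on mm10 (GRCm38), per the submitters' processing notes. Neither the annotation release nor the strand setting is stated in the labels or notes. From these counts, genes were kept with edgeR's filterByExpr (minimum count 10), leaving 13160 genes, and scaled by TMM. The 8 mdx libraries of all 3 ages were fitted in 1 quasi-likelihood model (edgeR 4.0.16, R 4.3.3), and p-values were adjusted by Benjamini and Hochberg's method across the 13160 genes. The 6 libraries held 4424543 to 5960363 counts, and the model's common biological coefficient of variation was 16.5%. Counting intervals are exact and cover counting error only.

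Genes are named where they are among the 15 highest or 15 lowest called changes (mean log2 CPM 3 or more, ages not overlapping), among the 8 members of a list with the smallest p, or a fixed gene of interest. Ccnd1, Frzb, Dkk3, Ccn1, Ccn2, Ccn3, Fstl3 and Nid2 fall outside this rule and were chosen after their values were seen. The comparison and the gene lists were chosen with earlier results of these data known. Gene coordinates are from GENCODE M21. Alternatives were DESeq2 1.42.0, other size factors, no filter, fewer libraries, a replicate block, and leaving out each library. The alternatives for 12.5 weeks were added after seeing the data.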

Additional observations from a re-analysis of the deposited data

How the results depend on the processing

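The count of genes called in 7 against 2.5 weeks was 5864, and it was 5416 with DESeq2, 5731 without the filter and 4567 to 6549 when each library was left out in turn. Replicate numbers do not pair the libraries (correlation of same-numbered libraries -0.0212, 0.0528 and 0.0203), and with the replicate block 5652 genes were called. Saa3, not called without the block, then changed by 2.53 (adjusted p = 0.0317). For 12.5 against 7 weeks the count ranged from 137 to 1618 when each library was left out. The sign turned for Pdgfra (0.06 without replicate 1 of 2.5 weeks) and for Ly6a (-0.05 and -0.00 without replicate 1 and 3 of 2.5 weeks, -0.01 without replicate 2 of 7 weeks), with neither called there. Leaving out each library in turn gave -0.32 to 0.06 for Pdgfra and -0.05 to 0.16 for Ly6a, and Ccnd1, near 0 and not called, read -0.01 with only the 7- and 2.5-week libraries, -0.02 with the replicate block and -0.24 to 0.17 over the left-out libraries; the cause was not tested. Depth limits genes at a few counts, such as Kcnj15 and Mrgprg.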
